A study of Homo sapiens with 6 samples.

Results

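T-24, an established human line of bladder cancer epithelium labelled as wild type, was treated for 48 h with 1 µM CCT068127, a small molecule that inhibits CDK2 and CDK9, kinases that act with cyclins. Control cells received the vehicle DMSO for the same time. Each group had 3 libraries of poly(A)-selected RNA, which the labels describe as independent biological replicates. The genes described here, silent in vehicle and switched on in treated cells, were selected on their TPM, a level scaled to transcript length and library. Of 38557 rows of the table, 141 had a mean DMSO level below 0.1 TPM and at least 1 TPM in all 3 CCT068127 libraries. Keratin, histone, ZNF, LINC, collagen and some other symbol groups and antisense symbols were left out by name. That removed 34 of the 175 rows that met both limits, of which 14 were LINC, 7 antisense, 6 keratin, 4 ZNF and 3 histone symbols. The levels of all 6 libraries chose these genes, so their difference between the groups is a description and carries no test.

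A silent gene in a cultured cancer line is usually one whose normal expression belongs to another tissue. Such genes lack the activators of that tissue, and many lie in chromatin marked for repression by DNA methylation or histone modification. CDK9 phosphorylates RNA polymerase II and so controls the release of paused polymerase into genes, while CDK2 drives the entry into and passage through DNA replication. A level around 1 TPM in a bulk library can stand for a few cells with many transcripts or for many cells with few, and these cannot be told apart here.

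The library totals set how far each value can be read. DMSO replicates 1 and 2 held 371044040 and 411097626 counts, DMSO replicate 3 held 5955296, and CCT068127 replicates 1 to 3 held 5557546, 1966742 and 4657316. In DMSO replicate 3, 121 of the 141 genes had a count of 0, which there allows up to 0.504 CPM (counts scaled to the library total, here at 3 counts). Evidence of silence in the controls thus rests on the deep replicates 1 and 2, but the choice of members did not. Without DMSO replicate 3 the rule gave 128 genes, of which 107 were among the 141. The other members, such as LILRB5 with 0.12, 0.12 and 0 TPM in DMSO, met the control limit only with the low value of replicate 3 in the mean. One count in CCT068127 replicate 2 equals 0.508 CPM. The epithelial keratins KRT8 and KRT18 were high in all 6 libraries, from 807.42 to 2399.46 TPM and from 913.99 to 1361.58 TPM, and EPCAM ranged from 2.67 to 5.71 TPM. The urothelial transcription factors GATA3 and PPARG read 78.08 to 99.58 TPM and 134.37 to 147.91 TPM in DMSO, and 12.06 to 16.14 TPM and 44.62 to 47.2 TPM in CCT068127. CDH1, of epithelial junctions, stood at 0.14 TPM or less in every library, and the uroplakins UPK1A, UPK1B, UPK2 and UPK3A, of differentiated urothelium, at 1.83 TPM or less.

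Of 19796 rows silent in DMSO, the 175 at 1 TPM or more in every treated library made up 0.884%. Over all rows of the table, 4025 (10.4%) had every CCT068127 library above every DMSO library, and by the rule every member did. The summed level of the 141 genes was 9.57, 10.29 and 2.83 TPM in DMSO replicates 1 to 3. It was 489.7, 594.8 and 606.8 TPM in CCT068127 replicates 1 to 3. That the treated sums were above the control sums follows from the rule, and they were close to each other. The shallow DMSO library gives the same count without the compound. Among 19703 rows below 0.1 TPM in both deep DMSO libraries, 30 reached 1 TPM in DMSO replicate 3, whereas 324, 451 and 434 did so in CCT068127 replicates 1, 2 and 3. DMSO replicate 3 shared 3, 4 and 2 of its rows with those treated libraries. The treated pairs shared 189, 210 and 225, and 155 rows reached 1 TPM in all 3 treated libraries, none of them in DMSO replicate 3. In the opposite direction, 50 rows had a mean CCT068127 level below 0.1 TPM and at least 1 TPM in all 3 DMSO libraries.

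**Figure D1:**
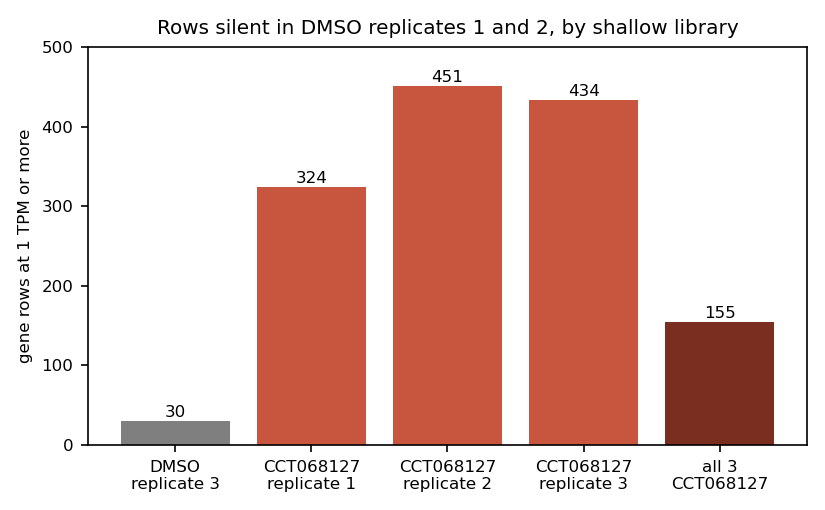
Number of gene rows at 1 TPM or more (vertical axis, starting at 0) among the 19703 rows below 0.1 TPM in both deep DMSO libraries, for the shallow DMSO library, each CCT068127 library, and all 3 CCT068127 libraries together. The shallow DMSO library holds 30 such rows, against 324 to 451 in single treated libraries.

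Most of the genes came on at a low level. The mean treated level had a median of 2.38 TPM, 9 genes reached 10 TPM, 25 reached 5 TPM and 55 stayed below 2 TPM. Behind these levels stood few reads: the lowest count over the treated libraries had a median of 8, was at least 5 in 98 genes, at least 10 in 51 and only 1 or 2 in 18. The treated libraries differed by a coefficient of variation with a median of 26.3%. The highest treated level fell in replicate 1 for 29 genes, in replicate 2, the shallowest, for 63 and in replicate 3 for 49. These are 20.6%, 44.7% and 34.8% of the members, beside 33%, 41% and 26% of the 11807 rows at 1 TPM or more in all 6 libraries. In 10 genes the highest treated library exceeded the lowest by more than 3-fold, led by the neuropeptide gene GAL with 3.15, 6.54 and 1.08 TPM on counts of 7, 5 and 2.

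**Figure D2:**
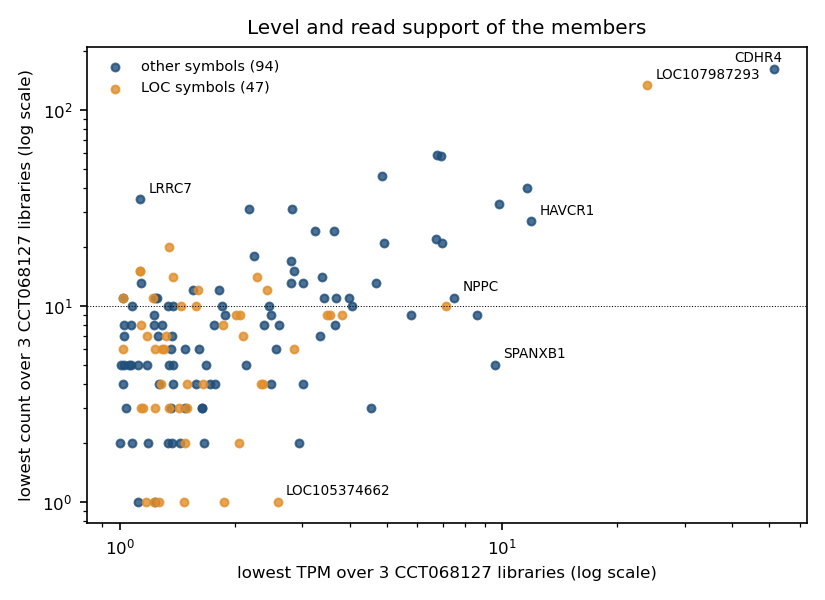
Each point is 1 of the 141 genes, with its lowest TPM over the 3 CCT068127 libraries (horizontal, log scale) against its lowest count there (vertical, log scale). The dotted line marks 10 counts, and 51 genes lie on or above it; LOC symbols (47) and other symbols (94) are coloured apart.

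The rule's limits cut through a continuous range. Just inside the treated limit stood FAR2P2, FRG2 and LOC101926915, with lowest treated levels of 1.00, 1.01 and 1.02 TPM. Just outside it stood MS4A2 with 0.99, C3orf49 with 0.97 and LOC105378184 with 0.97 TPM. MS4A2, which encodes a subunit of the high-affinity IgE receptor of mast cells, read 0.04, 0.02 and 0 TPM in DMSO and 1.04, 0.99 and 1.58 TPM in CCT068127. At the control limit, CT69, LOC100130345 and LOC102724087 had a mean DMSO level of 0.0967 TPM inside the rule, and LOC101927919, LOC105369325 and LOC105376412 had 0.1 TPM outside it.

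The gene with the highest level was CDHR4, a cadherin-related membrane protein gene on chromosome 3. It read 0.04, 0.03 and 0 TPM in DMSO and 51.47, 66.1 and 72.58 TPM in CCT068127, on counts of 22, 14 and 0 against 367, 162 and 432. Pooled over libraries, its CPM was 1730-fold higher in treated cells, with an exact 95% counting interval of 1240 to 2480. All intervals of this kind cover counting error only, not the spread between cultures. The nearest flanking genes did not share the increase: INKA1, which starts 346 bases away on the opposite strand, read 1.28, 1.25 and 2.57 TPM in DMSO and 1.37, 0 and 0.41 TPM in CCT068127, and IP6K1 was lower in treated cells.

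HAVCR1 encodes the surface receptor TIM-1, also known as kidney injury molecule 1 because injured renal tubules display it. It read 0.03, 0.12 and 0 TPM in DMSO and 15.51, 11.91 and 16.6 TPM in CCT068127, a pooled ratio of 234 (176 to 315). Its neighbour HAVCR2, another TIM receptor gene, had 0.18, 0.14 and 0 TPM in DMSO and only 0.63, 1.48 and 1.37 TPM in treated cells. SCIN, which encodes the calcium-dependent actin-severing protein scinderin, read 0.08, 0.08 and 0.04 TPM in DMSO and 12.35, 11.62 and 14.57 TPM in CCT068127. By the rule the treated values of both genes lay above every control library, and in each gene they stayed within a narrow range.

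The remaining genes of high level and read support were varied in kind. SNX32, a sorting nexin gene, read 0.02, 0.04 and 0 TPM in DMSO and 4.86, 19.42 and 14.72 TPM in CCT068127. It ends 971 bases from CFL1, an abundant actin-depolymerizing factor gene on the opposite strand, which read 1344.4, 1307.21 and 1294.36 TPM in DMSO and 5081.24, 4713.07 and 4784.02 TPM in treated cells. The sources used here do not say whether libraries kept strand, and the part of CFL1 reads in the SNX32 value was not tested. LOC107987293 read 0.08, 0.06 and 0 TPM in DMSO and 23.99, 46.15 and 30.43 TPM in CCT068127, the highest level among LOC symbols. C9orf129, a transcribed pseudogene, had 0.12, 0.13 and 0 TPM in DMSO and 6.76, 7.88 and 9.17 TPM in CCT068127, on at least 59 counts in each treated library. LOC107987192 read 0.15, 0.07 and 0 TPM in DMSO and 7.15, 9.89 and 10.93 TPM in CCT068127. It overlaps RASA3 on the same strand, which read 48.81, 49.15 and 46.54 TPM in DMSO and 23.66, 15.79 and 19.66 TPM in treated cells. The part of RASA3 reads in its value was not tested. FAM153CP, of the FAM153 repeat family, read 0.14, 0.11 and 0 TPM in DMSO and 4.91, 7.53 and 6.84 TPM in CCT068127.

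Promoters show which sequence context these genes came from, and 5 were chosen to display the range: the highest-level gene, the islet hormone IAPP, a pair with a TATA box, and the CpG-rich POU3F1. Each sequence is from RefSeq on GRCh38.p14 and runs from 250 bases before to 20 bases after a listed start, on the strand of the gene. For CDHR4 (chr3:49799854-49800123, minus strand) and IAPP (chr12:21354709-21354978, plus strand) capitals mark the AP-1 motif, TGAGTCA or TGACTCA. For NPPC (chr2:231926377-231926646, minus strand) and SCIN (chr7:12570470-12570739, plus strand) they mark TATAAA. For POU3F1 (chr1:38046774-38047043, minus strand) they mark each CG.
CDHR4: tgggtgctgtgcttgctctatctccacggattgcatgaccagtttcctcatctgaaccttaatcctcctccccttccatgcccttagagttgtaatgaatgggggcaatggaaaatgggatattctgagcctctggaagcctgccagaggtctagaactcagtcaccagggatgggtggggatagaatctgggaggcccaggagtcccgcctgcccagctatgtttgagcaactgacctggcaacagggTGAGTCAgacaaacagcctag
IAPP: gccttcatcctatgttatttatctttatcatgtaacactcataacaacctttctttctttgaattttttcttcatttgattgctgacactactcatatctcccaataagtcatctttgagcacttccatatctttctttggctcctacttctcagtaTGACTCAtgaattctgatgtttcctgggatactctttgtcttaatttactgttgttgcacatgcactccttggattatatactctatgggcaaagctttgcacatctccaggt
NPPC: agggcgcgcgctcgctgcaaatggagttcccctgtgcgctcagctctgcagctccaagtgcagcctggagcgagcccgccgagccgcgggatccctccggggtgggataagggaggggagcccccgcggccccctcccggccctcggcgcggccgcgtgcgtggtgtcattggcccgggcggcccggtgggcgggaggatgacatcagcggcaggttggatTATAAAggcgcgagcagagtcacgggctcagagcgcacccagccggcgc
SCIN: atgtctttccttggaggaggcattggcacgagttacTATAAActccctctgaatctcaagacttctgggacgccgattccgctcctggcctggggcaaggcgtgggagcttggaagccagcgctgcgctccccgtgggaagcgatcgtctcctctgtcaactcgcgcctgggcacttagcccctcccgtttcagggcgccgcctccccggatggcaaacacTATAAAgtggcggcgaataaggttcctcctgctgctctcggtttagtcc
POU3F1: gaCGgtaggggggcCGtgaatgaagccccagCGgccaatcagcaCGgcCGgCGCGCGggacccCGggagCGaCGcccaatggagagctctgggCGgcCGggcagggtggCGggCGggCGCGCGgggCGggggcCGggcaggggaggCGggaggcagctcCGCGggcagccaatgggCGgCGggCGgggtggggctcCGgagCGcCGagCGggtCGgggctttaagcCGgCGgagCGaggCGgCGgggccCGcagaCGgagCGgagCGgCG
The AP-1 motif of CDHR4 begins 1 base before the listed start and that of IAPP 93 bases before it. The whole CDHR4 window lies inside the RefSeq span of that gene, 49790732 to 49802914. Its listed start is therefore not the outer end from which the distance to INKA1 was taken. TATAAA begins 29 bases before the start in both NPPC and SCIN, and SCIN holds another copy 214 bases before it. POU3F1 holds 41 CG dinucleotides in these 270 bases. A match is a description of letters and not evidence that a factor binds.

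A promoter window of 300 bases, 250 before to 50 after the start, could be matched for 82 of the 141 genes. CpG observed over expected, a measure that is near 1 in CpG islands and low where methylation has eroded CpG, had a median of 0.364 over the 59 protein-coding members with a window. It was 0.328 over 3680 protein-coding genes that were silent in DMSO and not switched on, and 0.846 over 9899 with a mean DMSO level of 1 TPM or more. A ratio of at least 0.6 was found in 22% of the members, in 30.1% of the silent genes not switched on and in 84.7% of the expressed genes. Both silent sets thus had CpG-poor promoters beside the expressed genes. Among exceptions with high ratios were FGFR2 (1.15), POU3F1 (1.06), KCNIP4 (0.95), MIXL1 (0.917), SCIN (0.865) and NPPC (0.853). On either strand, TATAAA occurred in 15.9% of all member windows, in 17.6% of silent windows and in 11.6% of all 24216 windows. The AP-1 motif occurred in 7.32%, 6.05% and 4.83% of the same sets, that is in 6 members (CDHR4, DAB1, ESYT3, IAPP, LOC100505685 and LOC105372026).

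**Figure D3:**
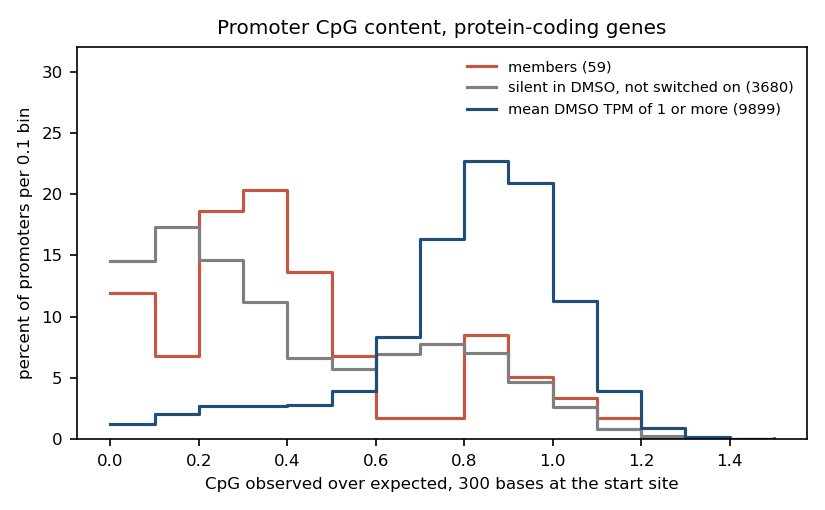
Distribution of CpG observed over expected (horizontal) in 300-base windows at the start of protein-coding genes, as percent of promoters per 0.1 bin (vertical, starting at 0). The medians are 0.364 for switched-on genes, 0.328 for genes that stayed silent and 0.846 for genes expressed in DMSO.

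The tissue in which each gene is normally expressed was assigned from general knowledge and not from the files, and 54 genes received one. The nervous system and senses had 12 genes, immune cells 11, testis and germ line 8, liver, kidney and gut 6, peptide hormones and islet 4, epithelium and growth factors 4, muscle 3, connective tissue and vessel 3, motile cilia 2 and embryo 1. A further 19 had no single tissue and 68, including all 47 LOC symbols, were not assigned. By RefSeq gene type, 80 members (56.7%) were protein-coding, 39 (27.7%) lncRNA and 9 (6.38%) transcribed pseudogenes, and 13 were not matched. Silent rows that were not switched on and not left out by symbol were 29.3% protein-coding and 47.3% lncRNA.

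**Figure D4:**
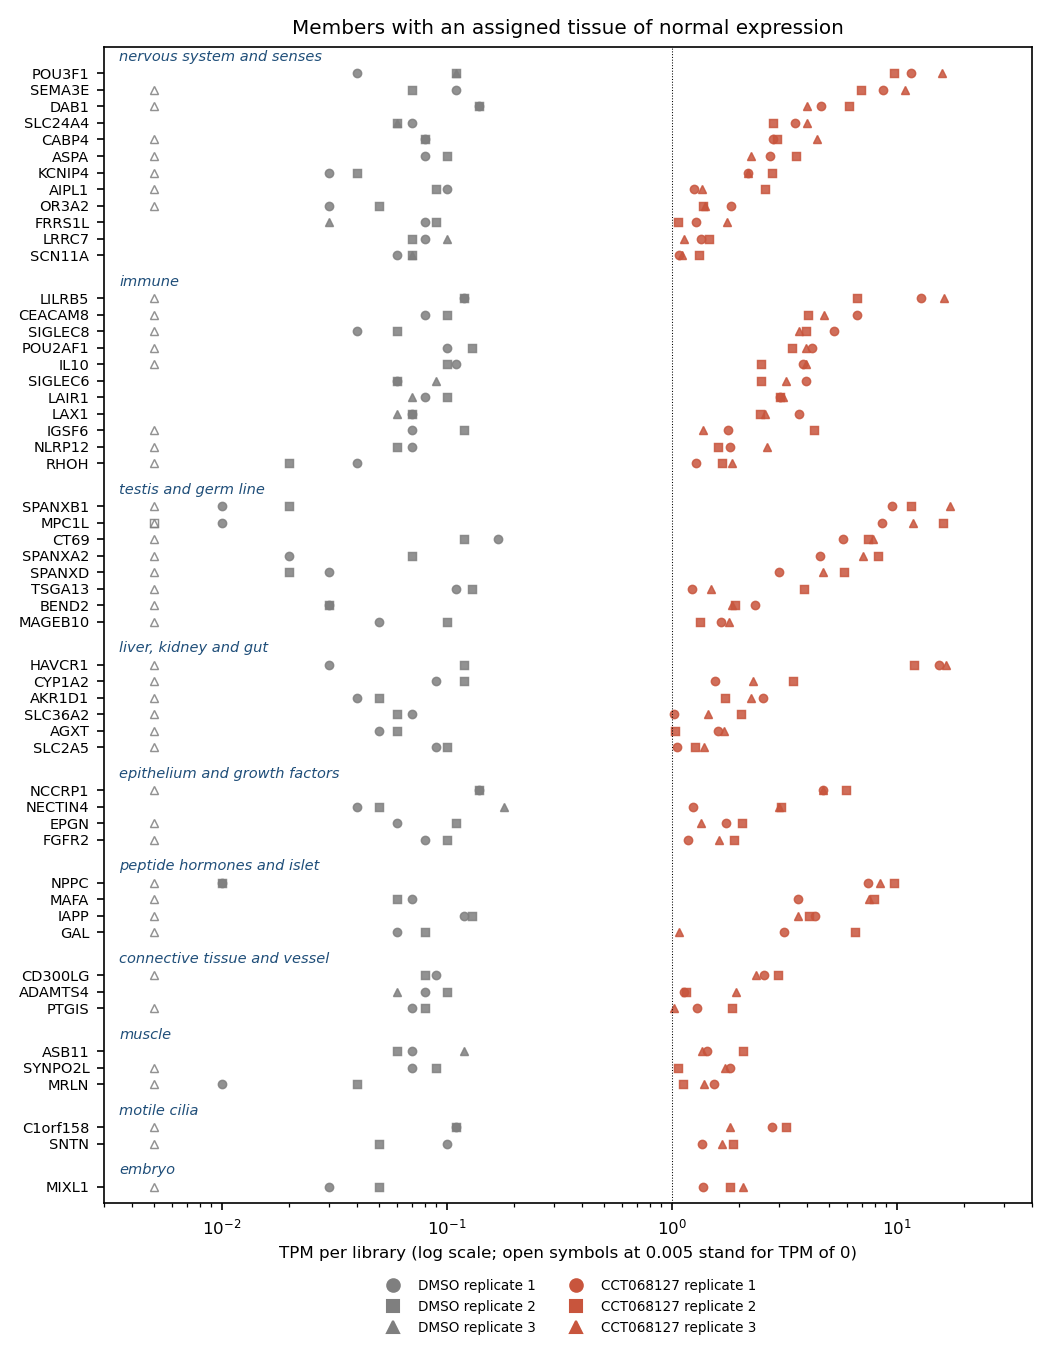
TPM in each of the 6 libraries (horizontal, log scale; grey DMSO, red CCT068127, symbols for replicates, open symbols for a TPM of 0) for the 54 genes with an assigned tissue. All red symbols lie at or right of the dotted line at 1 TPM and all grey ones lie below 0.2 TPM, as the rule requires of the former.

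The 12 genes of the nervous system and senses all had at least 5 counts in every treated library. POU3F1, an octamer-binding transcription factor of myelinating Schwann cells and epidermis, led them with 0.04, 0.11 and 0.11 TPM in DMSO and 11.63, 9.79 and 15.92 TPM in CCT068127. Of 15 POU genes in the table it alone met the rule, and its relatives POU3F2, POU3F3 and POU3F4 were at 0 TPM in all treated libraries. SEMA3E, a secreted semaphorin that guides axons and vessels, read 0.11, 0.07 and 0 TPM in DMSO and 8.7, 6.94 and 10.92 TPM in CCT068127, on 213, 58 and 222 treated counts. Among other class 3 semaphorins, SEMA3A, SEMA3C and SEMA3D were lower in treated cells (edgeR, adjusted p under 0.05). SEMA3B and SEMA3F were not called, and SEMA3G was not tested. Of the 13597 genes tested by edgeR, 64.7% were called, 31.9% higher and 32.8% lower. SEMA3C read 64.44, 55.89 and 57.08 TPM in DMSO and 13.3, 23.72 and 20.73 TPM in CCT068127.

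Channel and signalling genes of neurons came on at lower levels. KCNIP4, a calcium-binding subunit of Kv4 potassium channels, read 0.03, 0.04 and 0 TPM in DMSO and 2.18, 2.79 and 2.18 TPM in CCT068127. Its relative KCNIP3, lower in treated cells by edgeR, had 12, 12.07 and 9.88 TPM in DMSO and 0.39, 0.61 and 0.24 TPM in CCT068127. SLC24A4, a potassium-dependent sodium/calcium exchanger of olfactory neurons and enamel-forming ameloblasts, read 3.52, 2.82 and 3.99 TPM in treated cells against 0.07 TPM or less in DMSO. DAB1, an adaptor of the reelin receptors, read 4.61, 6.13 and 3.99 TPM against 0.14 TPM or less. Its gene overlaps OMA1 on the same strand, which read 8.35, 8.25 and 7.57 TPM in DMSO and 2.82, 4.34 and 2.39 TPM in CCT068127. The part of OMA1 reads in the DAB1 value was not tested. LRRC7, a scaffold of the postsynaptic density, had only 1.35, 1.47 and 1.13 TPM but 88, 35 and 67 treated counts, and SCN11A, the sodium channel of pain-sensing neurons, 1.08, 1.33 and 1.11 TPM.

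Genes of photoreceptors formed part of this group. CABP4, a calcium-binding protein of photoreceptor synapses, read 0.08, 0.08 and 0 TPM in DMSO and 2.81, 2.94 and 4.43 TPM in CCT068127. AIPL1, a chaperone of the visual phosphodiesterase, read 0.1, 0.09 and 0 TPM and then 1.26, 2.61 and 1.37 TPM. None of 45 listed retinal and sensory receptor genes was a member, 26 of them being silent in DMSO. Of the 7 listed genes tested, 3 were higher (PDE6A, CRX and GUCA1B) and 1 lower (OPN3), where 31.9% of all tested genes were higher and 32.8% lower. CRX, the photoreceptor homeobox factor, had mean levels of 0.153 TPM in DMSO and 4.49 TPM in CCT068127, so it missed the control limit of the rule. Of 71 neuronal and synaptic genes none was a member, 51 were silent in DMSO, and of 7 tested 5 were higher and 1 lower, beside the same shares of all genes. In both lists, genes near 0 in DMSO pass the low-count filter only where treated cells express them. Neither set of calls therefore measures a change of a whole list.

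The 11 immune genes encode 6 surface receptors of leukocytes and 5 signalling or regulatory proteins. LILRB5, of the leukocyte immunoglobulin-like receptors of myeloid cells, read 0.12, 0.12 and 0 TPM in DMSO and 12.78, 6.7 and 16.31 TPM in CCT068127. CEACAM8, the granulocyte antigen CD66b, read 0.08, 0.1 and 0 TPM and then 6.67, 4.04 and 4.78 TPM. SIGLEC8, a sialic acid-binding receptor of eosinophils and mast cells, read 0.04, 0.06 and 0 TPM and then 5.29, 3.96 and 3.69 TPM. In these 3 genes the shallow CCT068127 replicate 2 had 22, 10 and 11 counts. SIGLEC6, found on mast cells, B cells and placental trophoblast, read 3.95, 2.49 and 3.24 TPM in treated cells. LAIR1, an inhibitory collagen receptor, was even across the treated libraries with 3.02, 3.02 and 3.12 TPM, against 0.08, 0.1 and 0.07 TPM in DMSO.

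The remaining receptor gene, IGSF6 of myeloid cells, and signalling or regulatory genes of lymphocytes and myeloid cells completed the immune group. IL10, the anti-inflammatory cytokine, read 0.11, 0.1 and 0 TPM in DMSO and 3.82, 2.49 and 3.96 TPM in CCT068127, on 20, 4 and 17 counts. It was the only member among 94 listed cytokines, chemokines and TNF ligands, of which 34 others were tested, 9 higher and 10 lower, near the 31.9% and 32.8% of all tested genes. POU2AF1, the B cell coactivator of octamer-binding factors, read 4.23, 3.43 and 3.94 TPM in treated cells against 0.13 TPM or less in DMSO. LAX1, IGSF6, NLRP12 and RHOH had treated levels from 1.29 to 4.29 TPM.

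Within the receptor families only some genes reached 1 TPM in every treated library: 2 of 11 LILR, 6 of 12 SIGLEC and 1 of 12 CEACAM genes. Of 11 LILR genes in the table only LILRB5 met the rule, while LILRB3, a close relative, read 0.2, 0.2 and 0.19 TPM in DMSO and 11.79, 12.82 and 14.12 TPM in CCT068127 and missed the control limit. The other 9 LILR genes stayed at or below 1.44 TPM in every library. How reads that match both genes were divided was not tested, and LILRB5 took 37.3% to 56.5% of their joint treated counts. Of 12 SIGLEC genes, SIGLEC8 and SIGLEC6 were members, SIGLEC10, SIGLEC14 and SIGLEC16 were higher but had mean control levels above the limit, and SIGLEC15 was lower, from 34.46, 48.7 and 40.74 TPM to 15.13, 12.53 and 12.5 TPM. CEACAM1 and CEACAM19 were lower where CEACAM8 came on. CEACAM5, not tested by edgeR, read 0.06, 0.07 and 0.17 TPM in DMSO and 0.96, 0.53 and 1.97 TPM in CCT068127.

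**Figure D5:**
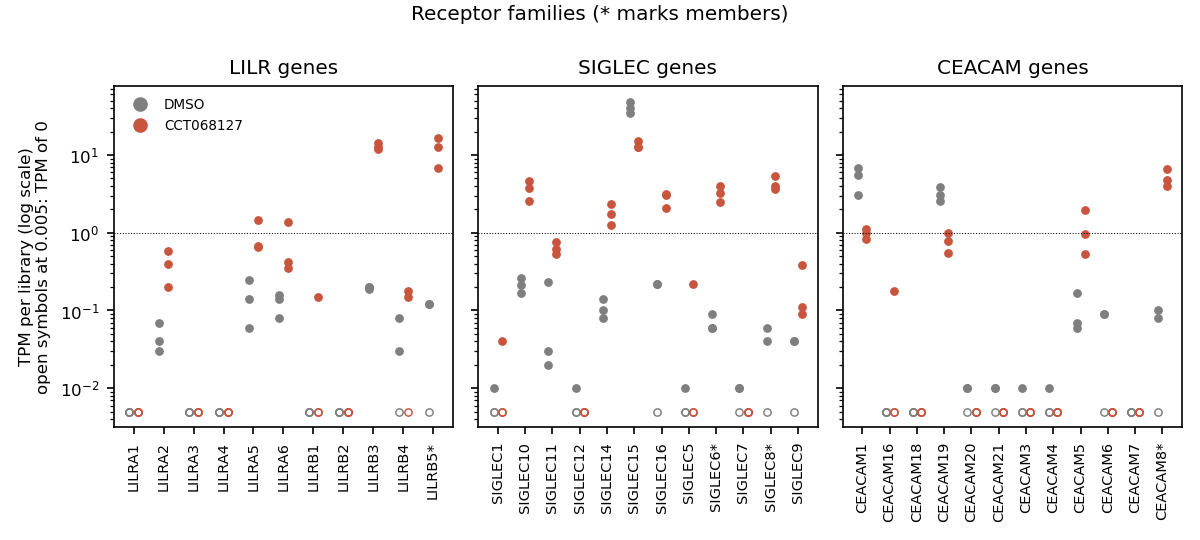
TPM per library (vertical, log scale; grey DMSO, red CCT068127, open symbols for a TPM of 0) of the LILR, SIGLEC and CEACAM genes, with asterisks at the members LILRB5, SIGLEC6, SIGLEC8 and CEACAM8. LILRB3 lies beside LILRB5 at 11.79 to 14.12 TPM in treated cells, and most other LILR genes stay near 0.

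Markers of blood cells differed among themselves. PTPRC, the pan-leukocyte antigen CD45, read 0.15, 0.13 and 0.07 TPM in DMSO and 0.06, 0.36 and 0.52 TPM in CCT068127. CD3E of T cells was at 0 TPM in all treated libraries. CD68, a lysosomal protein abundant in macrophages, read 4.93, 7.56 and 9.24 TPM in DMSO and 42.86, 43.3 and 40.06 TPM in CCT068127, and was called higher. Of 77 listed haematopoietic genes none was a member, 44 were silent in DMSO and 15 were at 0 in all 6 libraries. Their summed level ranged from 220.5 to 239 TPM in DMSO and from 227 to 253.3 TPM in CCT068127. Of the 16 tested, 10 were higher and 3 lower, where 31.9% of all tested genes were higher and 32.8% lower. The low-count filter asked for about 1.74 CPM in 3 libraries. Listed genes near 0 in DMSO therefore entered the test only where treated cells expressed them. These counts thus do not measure a change of the whole list. The higher genes included IKZF3, a lymphocyte transcription factor, with mean levels of 0.137 TPM in DMSO and 2.81 TPM in CCT068127, and CD38 with 0.113 and 2.04 TPM. They also included ZAP70, a T cell kinase, with 0.143 and 1.12 TPM, LYZ with 0.32 and 3.73 TPM, CORO1A and KLRD1. The 3 lower genes were LTB with mean levels of 38.3 TPM in DMSO and 4.03 TPM in CCT068127, LCK with 4.66 and 0.507 TPM, and CCR7 with 1.82 and 0.2 TPM. The part of other cells in the immune members' levels was not tested. HCLS1 counts as higher after scaling, although its mean TPM was 17.6 in DMSO and 17.4 in CCT068127.

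Peptide hormones and an islet transcription factor made up a small group. NPPC, the gene of C-type natriuretic peptide, a regulator of bone growth, read 0.01, 0.01 and 0 TPM in DMSO and 7.49, 9.78 and 8.48 TPM in CCT068127, on 1, 3 and 0 against 29, 11 and 29 counts. IAPP, whose hormone amylin is secreted with insulin, read 0.12, 0.13 and 0 TPM and then 4.33, 4.08 and 3.66 TPM. MAFA, the beta cell activator of the insulin gene, read 0.07, 0.06 and 0 TPM and then 3.64, 7.94 and 7.53 TPM. That no treated library overlapped the controls in these genes follows from the rule. Of 64 listed gut, stomach and pancreas genes IAPP and CEACAM8 were members, and of 6 others tested 2 were higher and 3 lower, beside 31.9% and 32.8% of all tested genes.

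Liver, kidney and gut genes other than HAVCR1 were enzymes and transporters at 1 to 4 TPM. CYP1A2, a hepatic cytochrome P450, read 0.09, 0.12 and 0 TPM in DMSO and 1.56, 3.46 and 2.31 TPM in CCT068127. AKR1D1, a steroid reductase of bile acid synthesis, read 2.54, 1.72 and 2.26 TPM in treated cells, AGXT, an enzyme of glyoxylate detoxification, 1.61, 1.04 and 1.71 TPM, and SLC2A5, the fructose transporter GLUT5, 1.06, 1.27 and 1.39 TPM. CYP1A2 was the only member among 48 listed liver genes, of which 5 others were tested, 1 higher and 2 lower. HAVCR1 was the only member among 33 listed kidney genes, where none of 3 others tested was higher and 2 were lower. Over all tested genes 31.9% were higher and 32.8% lower.

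Most of the 8 testis and germ line genes lay on the X chromosome, and only 1 had at least 10 counts in every treated library. The 3 SPANX members belong to a family of near-identical copies. SPANXB1, of a family of sperm nuclear proteins, read 0.01, 0.02 and 0 TPM in DMSO and 9.56, 11.58 and 17.25 TPM in CCT068127, on 12, 5 and 18 treated counts. SPANXA2 and SPANXD were also members, and since their copies share reads the sum over the 5 SPANX genes is safer to read: 0.09, 0.11 and 0 TPM in DMSO and 18.26, 25.66 and 29.02 TPM in treated cells. MPC1L, the testis paralog of a mitochondrial pyruvate carrier subunit, read 0.01, 0 and 0 TPM and then 8.62, 16.1 and 11.85 TPM, on 14, 9 and 16 treated counts. The share of MPC1L in the joint counts with MPC1 was 0.0294% or less in DMSO and 15.1%, 33.3% and 22.9% in CCT068127. BEND2 of meiotic germ cells had 2.34, 1.92 and 1.85 TPM and MAGEB10 1.66, 1.34 and 1.8 TPM in treated cells. None of 66 listed germ cell and cancer-testis genes was a member, and of 6 tested 3 were higher and 1 lower, beside 31.9% and 32.8% of all tested genes.

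The remaining tissues gave a few genes each. FGFR2, the epithelial receptor of fibroblast growth factors, read 0.08, 0.1 and 0 TPM in DMSO and 1.18, 1.9 and 1.63 TPM in CCT068127. NCCRP1 of squamous epithelium read 4.73, 5.93 and 4.69 TPM in treated cells, EPGN, a ligand of the EGF receptor, 1.75, 2.05 and 1.35 TPM, and NECTIN4, an adhesion protein, 1.25, 3.08 and 3.0 TPM. Muscle genes were ASB11, SYNPO2L and MRLN, of which MRLN rested on 4, 1 and 3 counts. CD300LG, ADAMTS4 and PTGIS, genes of vessels and cartilage, had treated levels from 1.02 to 2.96 TPM. C1orf158, an axonemal protein gene, and SNTN, of the ciliary tip, read 1.36 to 3.24 TPM, and MIXL1, a primitive streak homeobox gene, 1.38, 1.82 and 2.08 TPM.

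Several members without a single tissue are copies of other genes, and 17 members in all have similar copies between which reads may be split. UBE2L5, a copy of the ubiquitin-conjugating enzyme gene UBE2L3, read 0.09, 0.06 and 0.12 TPM in DMSO and 6.98, 7.08 and 7.38 TPM in CCT068127. Its share of their joint counts was 0.149% or less in DMSO and 5.96%, 4.74% and 6.68% in treated cells. NANOGP8, a retrogene of the pluripotency factor NANOG, read 3.96, 1.48 and 1.92 TPM in treated cells on 25, 3 and 10 counts, beside NANOG itself at mean levels of 0.197 TPM in DMSO and 4.31 TPM in CCT068127. RNF138P1 took 0.565% to 1.14% of the counts joint with RNF138 in DMSO and 14.1% to 18.5% in CCT068127. TMEM119, a membrane protein of osteoblasts and microglia, read 0.01, 0.01 and 0 TPM and then 2.86, 4.97 and 6.36 TPM. Its neighbour SELPLG, 23810 bases away, read 0.4, 0.41 and 0.25 TPM in DMSO and 6.86, 5.15 and 5.4 TPM in treated cells. ABCB5, an ABC transporter of pigment and limbal stem cells, had 2.37, 1.98 and 1.77 TPM, and ZFP28, a zinc finger gene, 3.91, 3.24 and 3.59 TPM. There were 6 members, among them LOC105378187 with treated levels of 2.29, 3.99 and 2.55 TPM, with 0 counts in all DMSO libraries.

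Positions could be taken from RefSeq on GRCh38 for 128 members. Chromosome 19 carried 11 of them (8.59%, against 3.98% of silent rows not switched on), and 5 of these are immune receptors (LILRB5, LAIR1, SIGLEC8, SIGLEC6 and CEACAM8). Chromosome X carried 8 (6.25% against 3.78%). Both shares of silent rows include the symbol groups that were left out of the members by name, whereas the silent shares below do not. Member pairs within 200000 bases of each other numbered 7: NECTIN4 with ADAMTS4, IGSF6 with LOC105371126, OR3A2 with ASPA, SIGLEC8 with SIGLEC6, LILRB5 with LAIR1, SNTN with LOC100130345 and SPANXA2 with SPANXD. Expressed surroundings were common, since 77 members (60.2%) had a flanking gene at 1 TPM or more in DMSO, against 45.5% of silent rows not switched on. An expressed gene lay on the same strand within 10000 bases upstream of 9 members (7.03%, against 2.97%), and 4 members (3.12%, against 6.66%) overlapped an expressed gene on the same strand. Among protein-coding genes that order was the other way, but on only 2 of 80 members (2.5%) against 73 of 4874 genes (1.5%). An expressed flank (62.5% against 47%) and an expressed upstream gene (10% against 5.19%) were more frequent at protein-coding members. Genes of unknown strand were counted as having neither a same-strand overlap nor an upstream gene, and stayed in the totals. Of 108 tested neighbours that were not members, 32 (29.6%) were higher and 42 (38.9%) lower, near the 31.2% and 34.1% of the neighbours of silent rows not switched on.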

How the data were processed

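RNA of T-24 cells was sequenced after poly(A) selection, 3 libraries per group. The deposited tables hold whole-number estimated counts and TPM by gene symbol. The submitters' processing notes list RSEM, Bowtie and hg38; neither annotation nor strandedness is given in the sources used here. Members were chosen by the rule on the deposited TPM, with a mean of exactly 0.1 TPM not below the limit. The members and lists were chosen with earlier results of these data known, and tissue names are general knowledge. The text names the 12 members of highest lowest treated level with 10 counts in each treated library, members of the lists, the leading members of each tissue, members beside the limits and neighbouring members; the other examples were chosen after their values were seen. Pooled CPM ratios have exact intervals. Calls of other genes are from edgeR 4.0.16 in R 4.3.3 (filterByExpr at 10 counts, TMM, quasi-likelihood test, two-sided, Benjamini-Hochberg adjusted p under 0.05 over 13597 genes), after the code was tested on simulated data. Genes near 0 in DMSO pass this filter only where treated cells express them, so such genes of any list can add only higher calls. TMM moved the median log2 ratio of 11807 genes at 1 TPM or more in all libraries by 0.44 against TPM, from -0.50 to -0.06, so edgeR log2 changes and TPM ratios differ. No pair of replicates agreed within counting noise (chi-square per degree of freedom 1.95 to 9.23). Alternatives were other limits, count minimums, CPM for TPM, DMSO replicate 3 as sole control, other scalings, DESeq2 1.42.0, limma 3.58.1, a replicate block, thinning and leaving out each library. Promoters and positions are from RefSeq tables on GRCh38.p14.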

Additional observations from a re-analysis of the deposited data

How the results depend on the processing

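The number of genes switched on followed the limits. It was 141 by the rule, 56 with a mean DMSO level below 0.05 TPM and 272 below 0.2 TPM, 321 with a treated limit of 0.5 TPM and 56 with 2 TPM, and 51 with 10 or more counts in every treated library. With DMSO replicate 3 as the sole control it was 239, of which 127 were among the 141. With 5 or more counts it was 98, with CPM in place of TPM 197 (78 shared), and with TPM divided by TMM factors 194. Leaving out 1 library at a time gave 128 to 197. The 128 came without DMSO replicate 3 and held 107 of the 141.

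The number of genes called between the groups stayed within 1.5 times the 8793 of the main analysis under every alternative run, from 7816 to 11819. The split moved with the scaling: 4333 higher and 4460 lower with TMM, 3006 and 6567 with library totals, 6258 and 4721 with DESeq2, and 2476 and 7475 with limma on log2(TPM + 1). The replicate numbers did not pair the libraries (correlations of same-numbered deviations 0.01, 0.005 and 0.009), and a fit with the replicate number as a block called 8297. No blocked value exists for the number of genes switched on, which comes from no test. Low counts in 18 members and the 1966742 counts of CCT068127 replicate 2 limit the precision of single levels.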

Other observations

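The alpha-globin genes, near-identical copies of each other, both missed the rule. HBA1 read 0 TPM in all DMSO libraries and 16.52, 16 and 0 TPM in CCT068127, while HBA2 read 0.01, 0.02 and 0 TPM in DMSO and 0, 0 and 19.18 TPM in CCT068127. Their sum was 0.01, 0.02 and 0 TPM in DMSO and 16.52, 16 and 19.18 TPM in treated cells, on 1, 2 and 0 against 27, 9 and 26 counts. HBB was at 0 TPM in all treated libraries.

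All 5 tested placental genes of a list of 34 that were not members (PSG4, PSG9, KISS1, ADAM12 and PEG10) were higher in treated cells by edgeR, where 31.9% of all tested genes were. In TPM the groups overlapped for PSG4 and PSG9. PSG4 read 36.94 TPM in DMSO replicate 1, against 36.43, 36.82 and 30.23 TPM in CCT068127. PSG9 read 2.65 TPM in DMSO replicate 1, above the 2 TPM of CCT068127 replicate 1. KISS1, the gene of kisspeptin, had mean levels of 19 TPM in DMSO and 143 TPM in CCT068127. SIGLEC6 was the only member of that list.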
